A study of Homo sapiens with 12 samples.

Results

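The 38 genes described here encode chaperones, disulfide isomerases, degradation factors and stress sensors of the endoplasmic reticulum (ER). They were chosen by name, as a group of known function, from the 57500 genes of a count table. Each of the 38 had 1 row in the table and passed the filter on low counts that left 27029 genes for testing. The table covers 12 RNA-seq libraries of HCC1806 and MDA-MB-468, established cell lines from triple-negative breast cancer, which lacks the estrogen and progesterone receptors and HER2 amplification. PACT, the protein made from PRKRA, binds double-stranded RNA and can act on the kinase PKR. PRKRA was targeted with CRISPR-Cas9 and the guide sgPACT-2 in both lines, called PACT-depleted below. The control guide was sgC1 in HCC1806 and sgNTA in MDA-MB-468, and each of the 4 groups had 3 libraries. The labels do not say whether cells were clones or pools, how long after targeting they were harvested, or whether the 3 replicates were separate cultures. The p-values therefore measure the spread between these libraries, which may be technical.

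The ER folds secreted and membrane proteins. When unfolded protein builds up there, the sensors IRE1, ATF6 and PERK are released from the chaperone BiP and start the unfolded protein response. IRE1 splices the XBP1 messenger RNA, ATF6 is cut in the Golgi to free a transcription factor, and PERK phosphorylates eIF2alpha, which favours translation of ATF4. The XBP1 and ATF6 branches raise chaperones and ER-associated degradation, the removal of misfolded protein through the ER membrane to the proteasome. PKR phosphorylates the same residue of eIF2alpha as PERK does, without passing through the ER. Gene counts do not report splicing of XBP1, cleavage of ATF6 or phosphorylation of IRE1.

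ATF6 and XBP1 act through short response elements in promoters, and matches to them were found in 11 of these genes (32.4% of those searched, against 1.08% of all genes). RefSeq windows (GRCh38.p14) from 250 bases before to 50 after the start site were found for 34 of the 38 genes. They were searched on both strands for the ER stress element ERSE (CCAAT and CCACG with any 9 bases between them), for ERSE-II (ATTGG and CCACG with any 1 base between them) and for TGACGTGG, the core of the unfolded protein response element. ERSE was present in 8 of 34 genes (23.5%), against 0.0916% of the 27305 genes with a window. ERSE-II was present in 3 of 34, against 0.0696%, and the third motif in 1 of 34, against 0.927%. The genes were chosen for known function, so larger shares than over all genes are not an independent finding. At least 1 motif was found in 11 genes: CALR, CANX, CRELD2, ERO1B, HSP90B1, HSPA5, PDIA6 and XBP1 for ERSE, and HERPUD1, HYOU1 and SDF2L1 for ERSE-II. The stretches below, read on the strand of each gene from 5′ to 3′, show the main chaperone BiP (HSPA5), the gene that fell in HCC1806 (HSP90B1), a disulfide isomerase, the factor XBP1 itself, and 2 of the 3 carriers of ERSE-II. Capitals mark the fixed bases of each match.
HSPA5: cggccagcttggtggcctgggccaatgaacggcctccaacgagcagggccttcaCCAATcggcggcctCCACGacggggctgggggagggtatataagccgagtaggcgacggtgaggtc
HSP90B1: ccctgaCCAATcggaaggagCCACGcttcg
PDIA6: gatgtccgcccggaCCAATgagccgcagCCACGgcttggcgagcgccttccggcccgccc
XBP1: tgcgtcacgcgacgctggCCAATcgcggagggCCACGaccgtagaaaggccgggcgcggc
HERPUD1: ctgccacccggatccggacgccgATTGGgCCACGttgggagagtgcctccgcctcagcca
HYOU1: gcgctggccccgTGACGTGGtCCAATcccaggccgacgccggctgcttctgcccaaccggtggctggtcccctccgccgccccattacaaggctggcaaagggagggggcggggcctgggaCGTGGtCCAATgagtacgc
HSPA5 is shown from chr9:125241344-125241463 on the minus strand, HSP90B1 from chr12:103930210-103930239 on the plus strand and PDIA6 from chr2:10812826-10812885 on the minus strand. XBP1 is shown from chr22:28800580-28800639 on the minus strand, HERPUD1 from chr16:56932002-56932061 on the plus strand and HYOU1 from chr11:119057266-119057405 on the minus strand. The HSPA5 and HYOU1 stretches lie upstream of all GENCODE 29 exons, and the others overlap a first exon of some transcript of the gene in part or, for HSP90B1, in full. HSP90B1 holds a second ERSE match, on the opposite strand, from -89 to -71 relative to the start site. No match was found in the window of DNAJB9, the gene that rose in HCC1806. In HYOU1 the TGACGTGG match shares bases with 1 of its 2 ERSE-II matches. A match describes these letters and is no measure of binding.

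The total was 18640633 to 24704877 counts for a HCC1806 library and 34581754 to 44790741 for an MDA-MB-468 library, so HCC1806 changes rest on fewer reads. The targeted gene PRKRA stood at 78.64, 82.63 and 72.13 CPM (counts scaled to a common library total with TMM factors) in the HCC1806 controls and at 37.48, 36.06 and 37.29 CPM after depletion. It fell from 77.8 ± 5.30 to 36.9 ± 0.774 CPM (SD, n = 3), a log2 change of -1.07 (SE 0.10, edgeR adjusted p = 1.7e-05). In MDA-MB-468 PRKRA stood at 41.1, 45.93 and 46.92 CPM in controls and 39.16, 35.49 and 41.62 CPM after depletion, and the groups overlapped (edgeR adjusted p = 0.958). Depletion in MDA-MB-468 therefore rests on the label. The epithelial markers EPCAM, KRT8, KRT18 and CDH1 lay above 100 CPM in every library. Among fibroblast markers COL1A1 was at 28.19 to 48.32 CPM in HCC1806 libraries and 16.81 to 21.54 in MDA-MB-468 libraries, PDGFRB at 1.668 to 4.207 and 0.2786 to 0.523, and COL3A1 did not exceed 0.8013. Of the endothelial markers, VWF was at 1.372 to 3.205 and 0.7998 to 1.568 CPM, and PECAM1 reached 0.2919 in HCC1806 libraries, against 1.046 to 1.895 CPM in the other line. CD3E, of T cells, did not exceed 0.02496. The part of these markers in the results was not tested. Of the basal or squamous markers, TP63 separated the lines: HCC1806 libraries had 201.8 to 281.8 CPM, MDA-MB-468 libraries 0.426 to 1.38. KRT5 went the other way, at 321.5 to 935.5 CPM in HCC1806 libraries and 953.2 to 1326 in MDA-MB-468 libraries. KRT14 overlapped between the lines, at 36.79 to 68.62 CPM in HCC1806 libraries and 29.04 to 58.65 in MDA-MB-468 libraries. ESR1, the estrogen receptor gene, was not absent, with 18.6 to 24.2 CPM in HCC1806 libraries and 6.27 to 7.51 in MDA-MB-468 libraries. PGR, the progesterone receptor gene, did not exceed 0.3005 CPM in HCC1806 libraries or 0.03042 in MDA-MB-468 libraries. The monocyte marker CD14 was at 76.6 to 106.4 CPM in MDA-MB-468, where the leukocyte marker PTPRC did not exceed 0.585.

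The libraries labelled replicate 1 stood apart in HCC1806 for these genes, in both groups. Of the 38 genes, 30 had their highest control value in control replicate 1, where 38.6% of all tested genes had theirs. Likewise 30 had their highest depleted value in PACT-depleted replicate 1, against 38.9% of all tested genes. Both held for 25 of the 38 (65.8%), against 20.8% of all tested genes. The median of the 38 genes, on the log2 scale against the control mean, was 0.19, -0.13 and -0.08 in control replicates 1, 2 and 3. It was 0.04, -0.18 and -0.36 in PACT-depleted replicates 1, 2 and 3. The libraries of a group thus lay further apart than the groups did. In MDA-MB-468 the same medians lay between -0.08 and 0.04 in all 6 libraries. The share of all counts that fell on these genes was 2.12%, 1.75% and 1.78% in the HCC1806 controls and 1.86%, 1.60% and 1.48% after depletion. In MDA-MB-468 it was 0.946% to 1.04% in all 6 libraries.

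**Figure D1:**
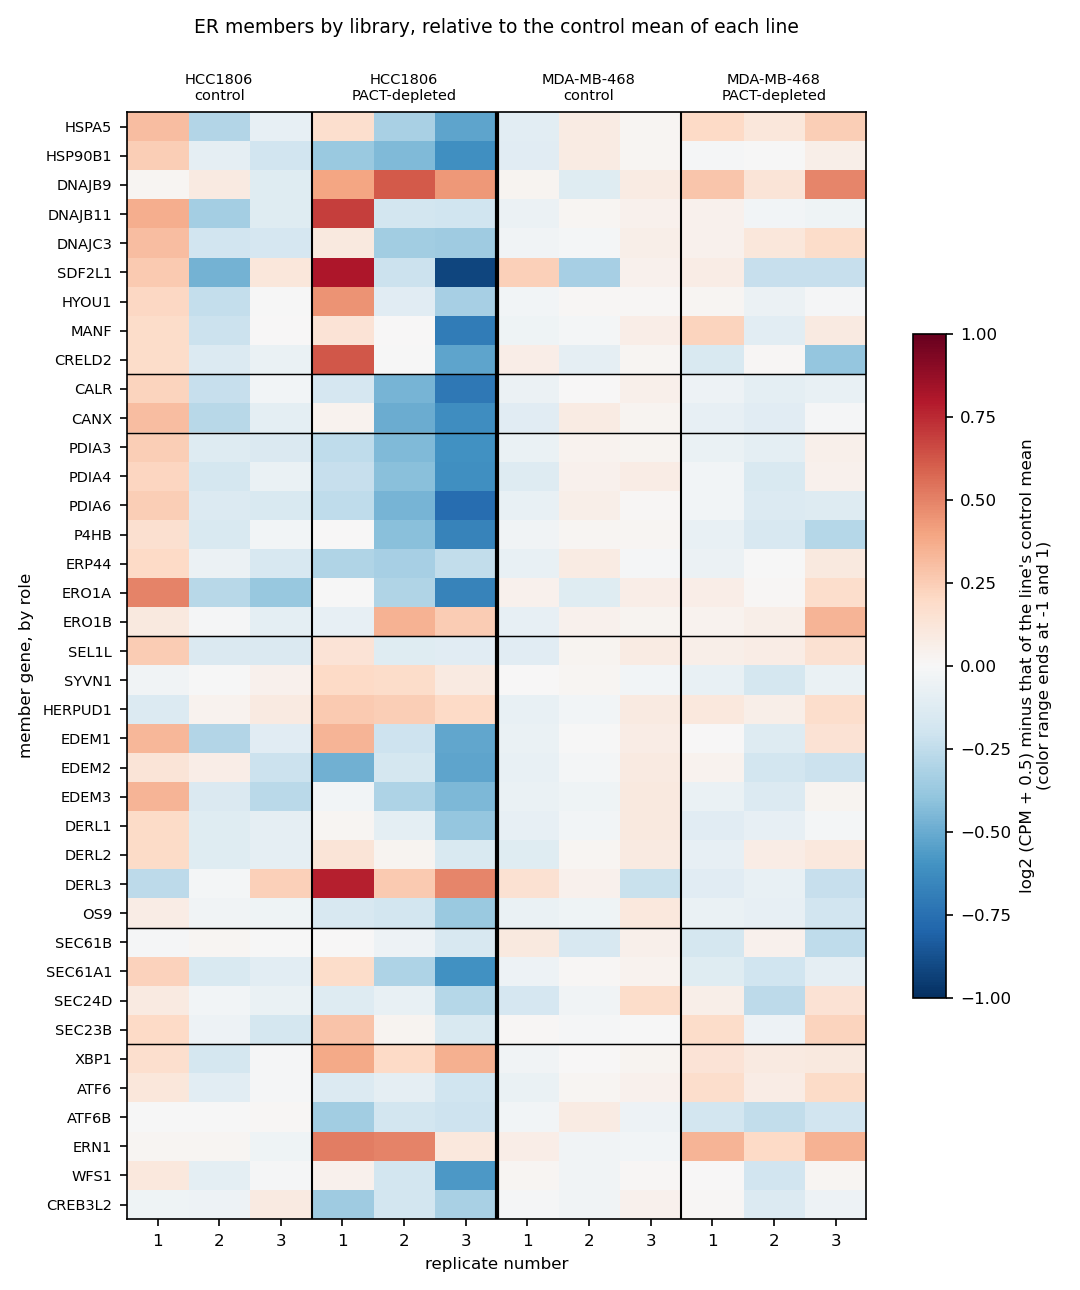
Each row is 1 of the 38 genes, grouped by role, and each column 1 library; colour gives log2 (CPM + 0.5) minus the control mean of the same line, red for higher and blue for lower. Most rows are reddest in control replicate 1 and bluest in PACT-depleted replicate 3 of HCC1806, while the MDA-MB-468 columns are pale.

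In HCC1806, depletion of PACT came with 1 higher and 1 lower gene among the 38, and the other 36 did not pass the test. DNAJB9, a cochaperone of BiP that also restrains IRE1, rose 1.42-fold. HSP90B1, which encodes GRP94, the HSP90 of the ER, fell 1.39-fold. The shares are 2.63% of the 38 in each direction, against 1.16% of all tested genes called higher and 1.32% called lower (edgeR quasi-likelihood, adjusted p under 0.05). Each share is a single gene. The median log2 change of the 38 was -0.15, with quartiles of -0.29 and 0.06. It was 0.01 over all tested genes and -0.03 over those whose mean was 50 counts or more. The median of the 38 was -0.04 under scaling by library size only, -0.05 when control replicate 1 or PACT-depleted replicate 3 was left out, and -0.26 when PACT-depleted replicate 1 was left out. Of the 38 changes, 13 were positive and 25 negative. The negative share was 65.8%, against 48.5% of all tested genes and 54.1% of those with a mean of 50 counts or more. Under scaling by library size only, which moved the median over all genes by 0.12, 16 were positive and 22 negative, and 3 genes were called higher (DNAJB9, ERN1 and XBP1; 2.39% of all genes were) and 0 lower (0.54%). An unadjusted p under 0.05 was reached by 5 genes upward and 12 downward, against 6.64% and 7.82% of all tested genes, and DESeq2 called 3 higher and 7 lower, against 2.86% and 4.46%. Without control replicate 1, 0 of the 38 passed, against 1.03% of all tested genes. Without PACT-depleted replicate 1, 1 was called higher and 9 lower (CALR, CANX, HSP90B1, HSPA5, P4HB, PDIA3, PDIA4, PDIA6 and SEC61A1), against 2.05% and 4.1%. With HCC1806 fitted alone 0 passed, against 0.315%.

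**Figure D2:**
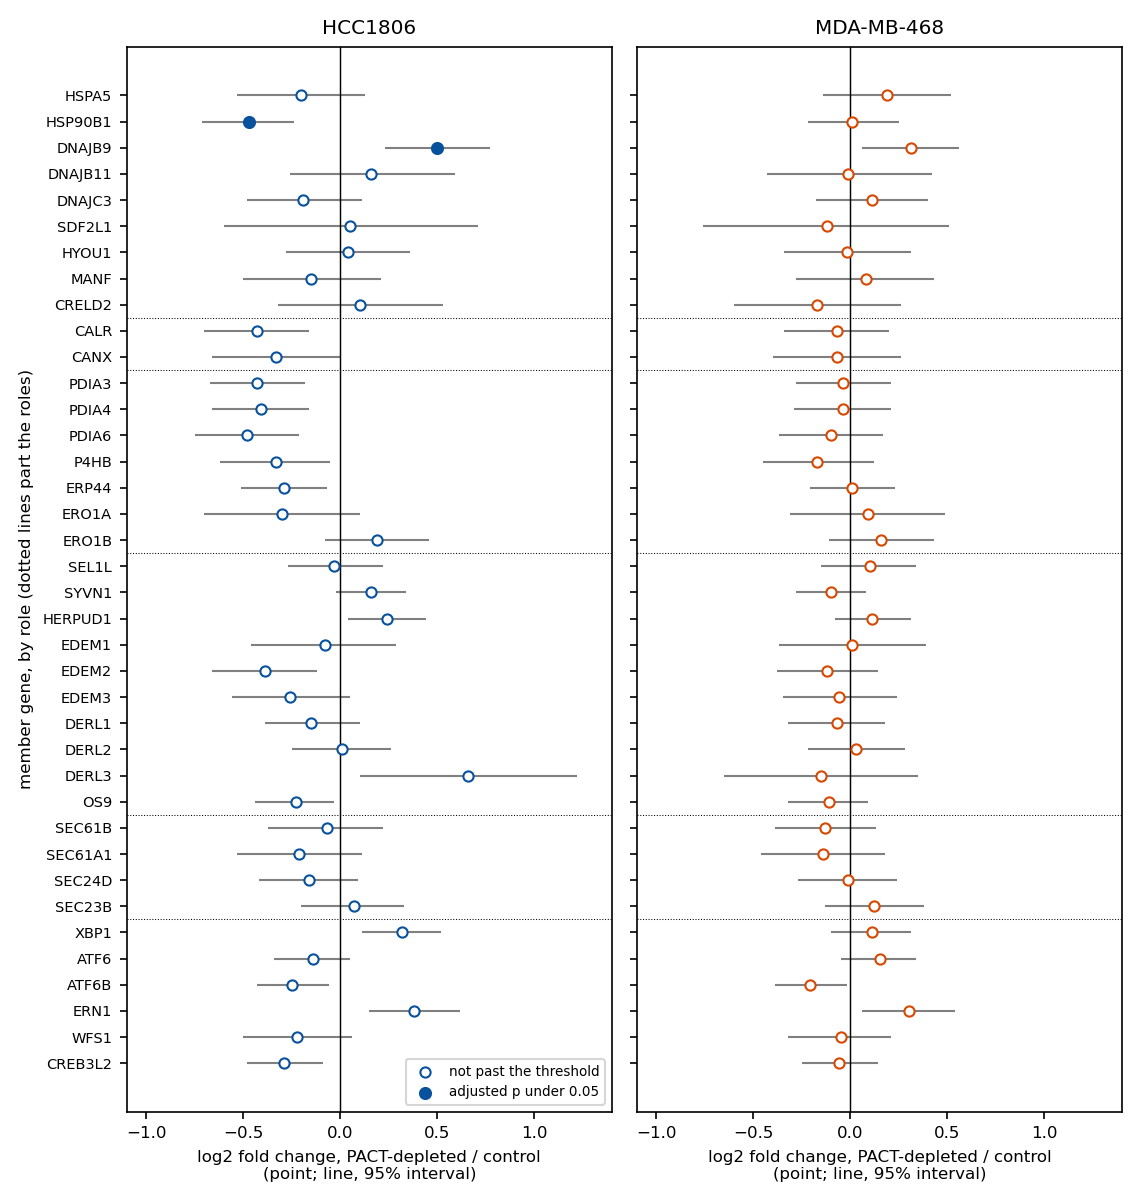
Points are log2 fold changes of PACT-depleted over control for the 38 genes, by role, with 95% intervals from the model, in HCC1806 (left) and MDA-MB-468 (right); filled points passed an adjusted p of 0.05. The filled points are HSP90B1 at -0.47 and DNAJB9 at 0.50 in HCC1806, and no point is filled in MDA-MB-468.

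Among the 9 HSP70 and HSP90 chaperones and their helpers, HSP90B1 (ENSG00000166598, chr12:103930107-103953645, GRCh38, plus strand) had the clearest values. It stood at 4925, 3895 and 3622 CPM in the HCC1806 controls and at 3205, 3052 and 2708 CPM after depletion. Every depleted library was below every control library, and control replicate 1 was far above the other two. The log2 change was -0.47 (SE 0.11, 95% interval -0.71 to -0.24, edgeR adjusted p = 0.0327). In RNA of a whole culture, fewer cells with a high level and less RNA in each cell cannot be told apart. Without control replicate 1 it was -0.34 with an adjusted p of 0.12, and with HCC1806 fitted alone the adjusted p was 0.244. The call also ended without PACT-depleted replicate 2 (0.0733) or 3 (0.0737), and without MDA-MB-468 control replicates 2 (0.0556) or 3 (0.057) or PACT-depleted replicate 3 (0.0525), which enter only through the shared spread. In MDA-MB-468 HSP90B1 stood at 689.4, 789.5 and 756.4 CPM in controls and 739.2, 741.6 and 775.5 CPM after depletion, and the groups overlapped.

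DNAJB9 (ENSG00000128590, chr7:108569568-108574850, plus strand) encodes ERdj4, which binds unfolded protein and hands it to BiP. It stood at 10.76, 11.37 and 9.742 CPM in the HCC1806 controls and at 14.11, 16.51 and 14.52 CPM after depletion. All 3 depleted libraries were above all 3 controls, and replicate 1 was not the highest in either group. The log2 change was 0.50 (SE 0.13, 95% interval 0.23 to 0.77, edgeR adjusted p = 0.0453). The call was close to the threshold: it held in 1 of 12 fits that each left out 1 library, the one without HCC1806 PACT-depleted replicate 1. In the other 11 the adjusted p ranged from 0.0506 to 0.15, and with HCC1806 fitted alone it was 0.216. In MDA-MB-468 DNAJB9 stood at 37.25, 33.55 and 38.74 CPM in controls and at 44.26, 39.94 and 51.37 CPM after depletion. The depleted libraries were again all higher, with a log2 change of 0.31 (SE 0.12, unadjusted p = 0.0188, edgeR adjusted p = 0.782). Strand handling in counting is not given in the sources used here, and DNAJB9 shares 6.45% of its exon bases with THAP5 and 3.49% with PNPLA8, both on the opposite strand. In HCC1806 their log2 changes were 0.09 (SE 0.13) and 0.28 (SE 0.13), and neither passed the test.

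HSPA5 encodes BiP, the HSP70 of the ER and the usual readout of the response (ENSG00000044574, chr9:125234853-125241330, minus strand). It stood at 2630, 1735 and 2008 CPM in the HCC1806 controls and at 2385, 1693 and 1478 CPM after depletion. The groups overlapped, and replicate 1 was the highest in each. The log2 change was -0.20 (SE 0.16, 95% interval -0.53 to 0.13, edgeR adjusted p = 0.658). Without PACT-depleted replicate 1 it was -0.42 and passed, with an adjusted p of 0.0444. In MDA-MB-468 HSPA5 stood at 590.5, 671.4 and 642.8 CPM in controls and at 730.7, 686.3 and 753.3 CPM after depletion. There the depleted libraries were all higher, by a log2 change of 0.19 (SE 0.16, edgeR adjusted p = 1). The sign thus differed between the lines, and the difference itself was 0.39 (SE 0.22, edgeR adjusted p = 0.681).
SDF2L1, a helper of BiP that is among the sharpest ER stress targets, varied most within a group. It stood at 18.01, 10.65 and 16.18 CPM in the HCC1806 controls and at 26.6, 12.78 and 7.679 CPM after depletion, a coefficient of variation of 62.4% in the depleted group. Its log2 change was 0.05 (SE 0.31) and turned to -0.56 without PACT-depleted replicate 1. The other 5 genes of the role (HYOU1, DNAJB11, DNAJC3, MANF and CRELD2) lay between -0.19 and 0.16 in HCC1806 and between -0.17 and 0.11 in MDA-MB-468, and none passed the test.

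The lectin chaperones CALR and CANX hold newly made glycoproteins in the ER. Their HCC1806 log2 changes were -0.43 (SE 0.13, edgeR adjusted p = 0.0924) and -0.33 (SE 0.16, edgeR adjusted p = 0.341). CALR stood at 3731, 2716 and 3134 CPM in controls and 2846, 2308 and 1943 CPM after depletion, and the groups overlapped through PACT-depleted replicate 1. In MDA-MB-468 both changes were -0.07.

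Of the 7 genes of disulfide formation, 6 had negative estimates in HCC1806, with a median of -0.33 and no gene past the threshold. PDIA6, an isomerase that binds BiP and IRE1 (ENSG00000143870, chr2:10783391-10837977, minus strand), stood at 515.4, 395.2 and 390.8 CPM in controls and at 363.9, 315 and 255.7 CPM after depletion. All depleted libraries were below all controls. The log2 change was -0.48 (SE 0.13, 95% interval -0.75 to -0.21, edgeR adjusted p = 0.0584). PDIA6 shares 25.2% of its exon bases with ATP6V1C2 on the opposite strand, whose own log2 change was -0.02 (SE 0.14). PDIA3, the isomerase that works with CALR and CANX, stood at 1987, 1533 and 1515 CPM in controls and at 1406, 1234 and 1101 CPM after depletion. Its groups did not overlap either, and its log2 change was -0.43 (SE 0.12, edgeR adjusted p = 0.0617). DESeq2 called PDIA6 (adjusted p = 0.0176), PDIA3 (0.018) and PDIA4 (0.0318) lower. PDIA4 and ERP44 did not overlap between groups, with log2 changes of -0.41 and -0.29.
P4HB, the classical protein disulfide isomerase, stood at 911.2, 735.8 and 802.2 CPM in the HCC1806 controls and at 817.9, 612.2 and 514.4 CPM after depletion, with overlap and a log2 change of -0.33 (SE 0.14). In MDA-MB-468 P4HB stood at 729.2, 759.5 and 758.5 CPM in controls and at 712.3, 671.8 and 613.6 CPM after depletion, where the groups were apart, and its change of -0.17 (SE 0.14) did not pass. ERO1A, the oxidase that recharges the isomerases, is also known to respond to hypoxia. It stood at 214.4, 125.2 and 117.1 CPM in the HCC1806 controls and at 151.6, 123.5 and 95.72 CPM after depletion. Control replicate 1 was well above every other library, and the log2 change went from -0.30 (SE 0.19) to 0.02 without it. ERO1B, its paralogue, was the 1 positive estimate of the set, at 0.19 (SE 0.13). In MDA-MB-468 the 7 genes lay between -0.17 and 0.16 and ERO1A at 0.09 (SE 0.19).

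The 10 genes of ER-associated degradation were mixed in HCC1806, with 4 positive and 6 negative estimates and none past the threshold. HERPUD1, an organiser of the degradation complex, stood at 52.2, 58.64 and 61.12 CPM in controls and at 68.74, 67.95 and 65.84 CPM after depletion. All depleted libraries were higher, with a log2 change of 0.24 (SE 0.10, unadjusted p = 0.0239, edgeR adjusted p = 0.241). In MDA-MB-468 HERPUD1 stood at 99.36, 102.8 and 111.3 CPM in controls and 112.6, 108.8 and 117.8 CPM after depletion, with overlap and a log2 change of 0.11 (SE 0.09). SYVN1, the ubiquitin ligase HRD1, went opposite ways in the lines by its estimates. It stood at 220.9, 226.1 and 233.8 CPM in the HCC1806 controls and 260.4, 258.5 and 241.2 CPM after depletion, a log2 change of 0.16 (SE 0.09). In MDA-MB-468 it stood at 277.3, 280.1 and 270.1 CPM in controls and 262.5, 244.5 and 263.2 CPM after depletion, a log2 change of -0.10 (SE 0.09). Groups were apart in both lines, and the difference between the lines was -0.26 (SE 0.12, unadjusted p = 0.0438, edgeR adjusted p = 0.577). SYVN1 shares 7.24% of its exon bases with FAU on the same strand, and FAU itself changed by -0.17 (SE 0.12) in HCC1806.
DERL3, a derlin of the ER membrane, had the highest estimate of the 38 in HCC1806, 0.66 (SE 0.26, edgeR adjusted p = 0.239). It is uncertain: 77.0% of its exon bases are shared with SMARCB1 on the opposite strand, and it held 1039 counts over all 12 libraries. EDEM2, a mannosidase-like protein that marks glycoproteins for removal, was lowest of the role in HCC1806 at -0.39 (SE 0.13, edgeR adjusted p = 0.129). OS9, a lectin that delivers such glycoproteins, was lower without overlap in both lines, by -0.23 (SE 0.10) in HCC1806 and -0.11 (SE 0.10) in MDA-MB-468. The remaining 5 genes, SEL1L, EDEM1, EDEM3, DERL1 and DERL2, lay between -0.26 and 0.01 in HCC1806. The 4 genes of translocation and export (SEC61A1 and SEC61B of the protein channel, SEC23B and SEC24D of the vesicle coat) lay between -0.21 and 0.07 in HCC1806 and between -0.14 and 0.12 in MDA-MB-468.

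Among the sensors and factors, ERN1 and XBP1 were higher without overlap in both lines, and no change passed the threshold. ERN1 encodes IRE1 (ENSG00000178607, chr17:64039142-64130819, minus strand). It stood at 51.12, 51.21 and 48.92 CPM in the HCC1806 controls and at 72.22, 71.16 and 54.25 CPM after depletion. PACT-depleted replicate 3 lay nearer the controls than the other 2 depleted libraries, and the log2 change was 0.38 (SE 0.11, edgeR adjusted p = 0.0851). In MDA-MB-468 ERN1 stood at 38.23, 35.53 and 35.79 CPM in controls and at 46.37, 41.96 and 46.58 CPM after depletion, a log2 change of 0.30 (SE 0.11, edgeR adjusted p = 0.74). With MDA-MB-468 fitted alone, where the spread is smaller, ERN1 passed (edgeR adjusted p = 0.0314), as 1.21% of all tested genes did upward. XBP1 (ENSG00000100219, chr22:28794555-28800597, minus strand) stood at 116, 91.41 and 102.8 CPM in the HCC1806 controls and at 134.8, 118.9 and 132.5 CPM after depletion. Its log2 change was 0.32 (SE 0.10, edgeR adjusted p = 0.114), and DESeq2 called it higher (adjusted p = 0.0367). In MDA-MB-468 XBP1 stood at 446.1, 459.5 and 467 CPM in controls and at 502.1, 487.5 and 488.6 CPM after depletion, with a log2 change of 0.11 (SE 0.10).
ATF6 and its paralogue ATF6B, a weaker activator that can dampen ATF6, differed from each other. ATF6 stood at 79.64, 68.4 and 73.28 CPM in the HCC1806 controls and at 66.97, 69.25 and 64.27 CPM after depletion, with overlap and a log2 change of -0.14 (SE 0.09). In MDA-MB-468 it stood at 117.4, 124.9 and 127 CPM in controls and at 139.3, 129.4 and 140.8 CPM after depletion, apart and higher by 0.15 (SE 0.09). ATF6B was lower without overlap in both lines. It stood at 237.9, 238.1 and 241.4 CPM in the HCC1806 controls and at 187.4, 210.3 and 207.3 CPM after depletion, a log2 change of -0.25 (SE 0.09, edgeR adjusted p = 0.174). In MDA-MB-468 it stood at 162.9, 175.7 and 160.2 CPM in controls and at 145.9, 140.2 and 145.5 CPM after depletion, a log2 change of -0.21 (SE 0.09, edgeR adjusted p = 0.856). CREB3L2, a relative of ATF6 held in the ER membrane, was lower without overlap in HCC1806 at -0.29 (SE 0.09, edgeR adjusted p = 0.126) and at -0.06 in MDA-MB-468. WFS1, an ER membrane protein lost in Wolfram syndrome, was at -0.22 and -0.05.

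**Figure D3:**
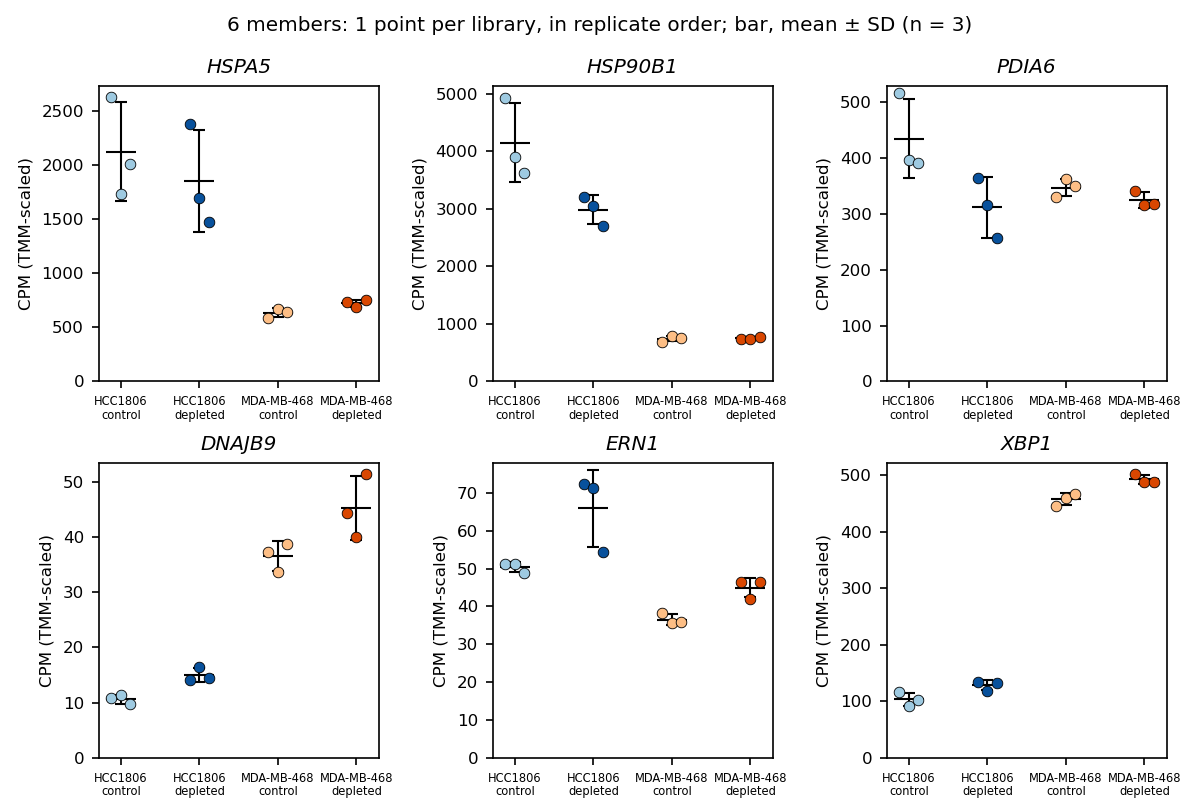
Each point is 1 library in replicate order, with the group mean and SD (n = 3) as bars, for 6 genes on a linear CPM axis from 0. HSP90B1 and PDIA6 are lower in depleted HCC1806 libraries, DNAJB9, ERN1 and XBP1 are higher in depleted libraries of both lines, and HSPA5 overlaps in HCC1806.

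In MDA-MB-468 no gene of the 38 passed the test, against 0.17% of all tested genes, all of them higher. DESeq2 also called 0 of the 38 (0.455% of all genes), and an unadjusted p under 0.05 was reached by 3: DNAJB9 and ERN1 upward and ATF6B downward (7.89%, against 5.27% of all tested genes). The median of the 38 was -0.03, against -0.01 over all tested genes, and the estimates ran from -0.21 to 0.31. The 95% intervals nevertheless reach 0.52 for HSPA5 and 0.56 for DNAJB9, so these data do not exclude a change of that size.

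Counted by separation of the groups, 6 of 38 were higher and 9 lower without overlap in HCC1806, against 8.51% and 8.17% of all tested genes. In MDA-MB-468 it was 5 higher and 5 lower, against 6.20% and 6.94%. DNAJB9, ERN1 and XBP1 were higher without overlap in both lines (7.89% of the 38, against 1.09% of all tested genes), and ATF6B and OS9 lower in both (5.26%, against 0.947%). The lines have separate control libraries. The sign of the estimate was the same in both lines for 23 of 38 genes (7 positive, 16 negative; 60.5%), against 56.9% of tested genes whose mean was 50 counts or more.
The difference between the lines in the effect of depletion passed for 0 of 38 genes, against 0.122% of all tested genes. DESeq2 called 0 too (0.911% of all genes), and an unadjusted p under 0.05 was reached by 6 of 38 (15.8%, against 8.39%): HSP90B1, PDIA3, PDIA4 and ATF6 toward higher values in MDA-MB-468, and DERL3 and SYVN1 toward lower. For HSP90B1 the difference was 0.49 (SE 0.16, 95% interval 0.15 to 0.82, edgeR adjusted p = 0.366). An effect in HCC1806 alone is therefore not shown for any of them.

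Promoter motifs and fold changes were set side by side without a test. In HCC1806 the 11 genes with a motif had a median log2 change of 0.04, with 6 positive and 5 negative, and the 23 with a window and no motif had -0.19, with 6 positive and 17 negative. HSP90B1 and PDIA6, near -0.47 and -0.48, and XBP1 and HERPUD1, at 0.32 and 0.24, all carry one. In MDA-MB-468 the medians were -0.02 and -0.01.

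Between the control cells of the lines, 34 of the 38 genes differed (89.5%, against 74.2% of all tested genes): 15 were higher in MDA-MB-468 (34.2% of all genes were) and 19 lower (40.1%). Line and control guide change together here and cannot be told apart. Scaling by library size only moved the median over all genes by -0.25 and gave 14 higher and 21 lower, against 29.3% and 45.7% of all tested genes. All 7 genes of disulfide formation had lower estimates in MDA-MB-468, 6 of them past the threshold. HSP90B1 was 5.57-fold lower in MDA-MB-468 (log2 difference -2.48, SE 0.12), PDIA3 4.36-fold (-2.13), HSPA5 3.35-fold (-1.74) and CALR 2.65-fold (-1.41). XBP1 was 4.42-fold higher (2.15, SE 0.10), SEC61B 3.86-fold (1.95), DNAJB9 3.44-fold (1.78) and WFS1 2.90-fold (1.54). P4HB, HYOU1, SDF2L1 and MANF did not pass. HSP90B1, HSPA5, CALR and PDIA6 carry ERSE matches as XBP1 does and were lower in the line where XBP1 was higher, while CANX, with matches too, was higher there (0.78, SE 0.16).
Per kilobase of exon in GENCODE 29, which allows levels of different genes to be compared, CALR ranked first in both lines, at 1177 ± 188 CPM per kb in HCC1806 and 443.4 ± 16.0 in MDA-MB-468 controls (SD, n = 3). In HCC1806 it was followed by HSP90B1 at 883.4 ± 146 and HSPA5 at 543.5 ± 118 CPM per kb. In MDA-MB-468 CANX was next at 396.2 ± 27.7, then SEC61A1 at 183.6 ± 5.77, HSPA5 at 162.5 ± 10.5 and HSP90B1 at 158.7 ± 10.9 CPM per kb. XBP1 was at 34.15 ± 4.07 in HCC1806 and 151.1 ± 3.49 in MDA-MB-468. DERL3 was lowest in both, at 0.396 and 1.01 CPM per kb.

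**Figure D4:**
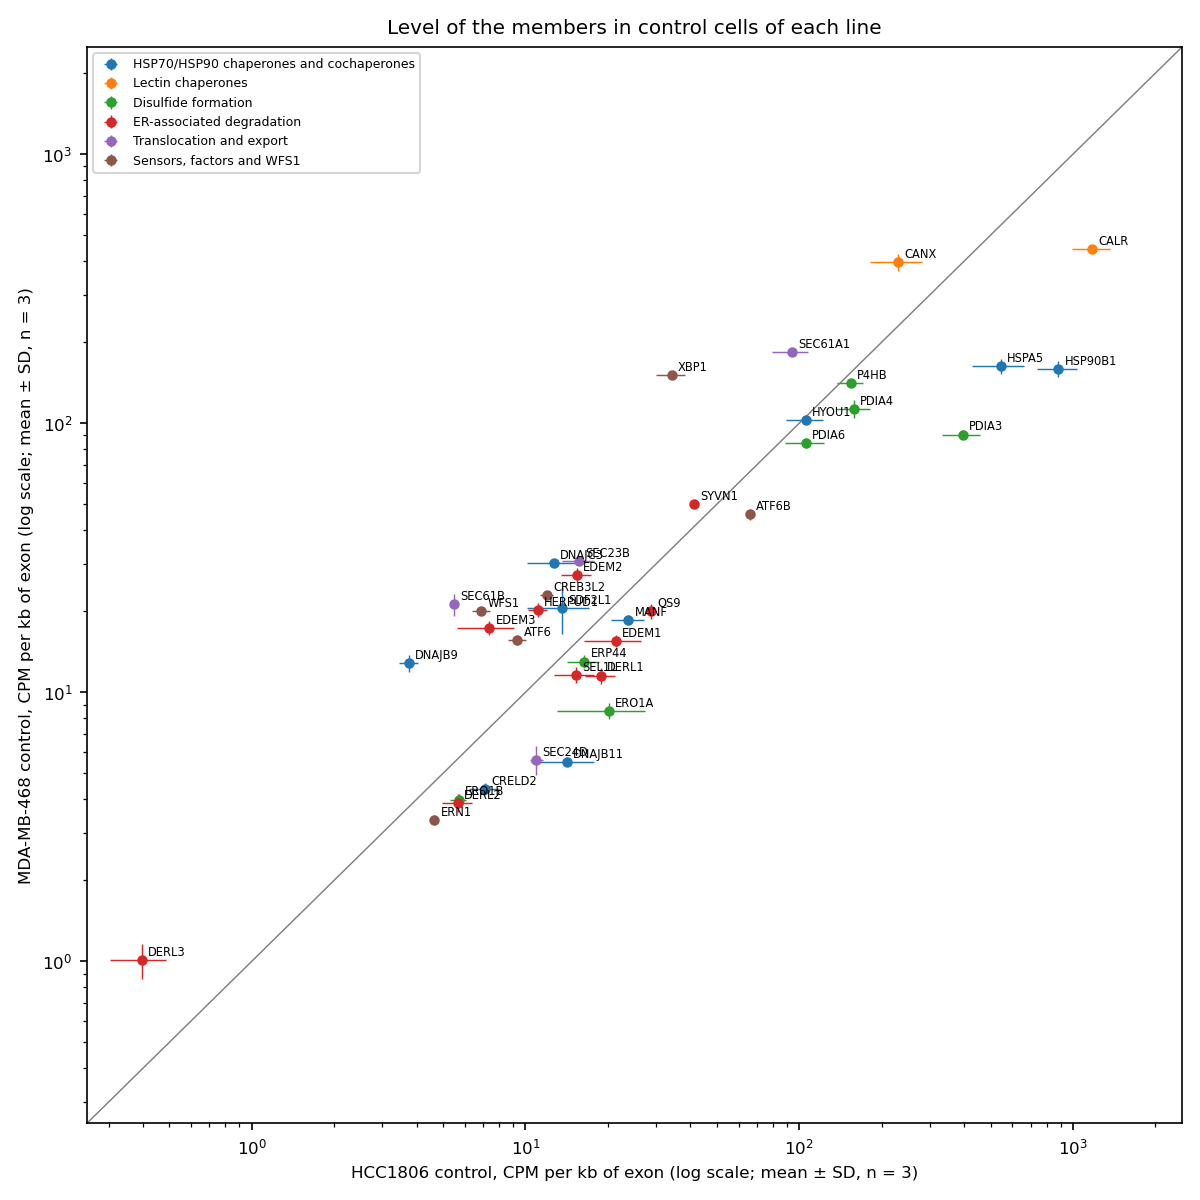
Each point is 1 gene in control cells, with CPM per kb of exon in HCC1806 across and in MDA-MB-468 upward (log axes, mean ± SD, n = 3); colour gives the role and the line marks equal levels. HSP90B1, PDIA3 and HSPA5 lie well below the line, XBP1, SEC61B and DNAJB9 well above it.

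Of 70 further genes of ER folding, glycosylation, translocation and transport, all tested, 1 rose and 10 fell in HCC1806. Over all tested genes 1.16% were called higher and 1.32% lower. UGGT1, which re-glucosylates unfolded glycoproteins so that CALR and CANX bind them again, rose from 59.5 ± 4.09 to 83.8 ± 8.40 CPM (SD, n = 3; log2 0.49, SE 0.10, edgeR adjusted p = 0.0158). LMAN1, a cargo receptor from the ER to the Golgi, fell from 199.1 ± 28.7 to 137 ± 1.52 CPM (SD, n = 3; edgeR adjusted p = 0.0119). TMX4 and TXNDC12, both thioredoxin-related, also fell, with edgeR adjusted p of 0.0167 and 0.0182. The median of the 70 was -0.21, with 15 positive and 55 negative. Over all tested genes the median was 0.01, with 50.9% positive and 48.5% negative. The count moved from 11 to 2 without HCC1806 control replicate 1 and to 29 without PACT-depleted replicate 1, and was 0 with HCC1806 fitted alone. In the same order, the shares of all tested genes were 2.49%, 1.03%, 6.15% and 0.315%. In MDA-MB-468 0 of the 70 passed, against 0.17% of all tested genes, and the median was -0.05.
The list of the PERK branch held 12 genes: PERK itself, ATF4 and genes that respond to eIF2alpha phosphorylation from any source. In HCC1806 8 of 12 rose, against 1.16% of all tested genes called higher, with a median of 0.94. In MDA-MB-468 2 of 12 rose, ATF3 and PPP1R15A, against 0.17%, with a median of 0.25. ATF3 stood at 6.129, 8.281 and 8.302 CPM in the HCC1806 controls and 49.63, 40.43 and 43.27 CPM after depletion. PPP1R15A, the phosphatase subunit that reverses eIF2alpha phosphorylation, went from 55.0 ± 7.37 to 126.5 ± 15.0 CPM in MDA-MB-468 (SD, n = 3; edgeR adjusted p = 0.000139). EIF2AK3, the gene of PERK, was at 12.1 ± 1.36 and 12.1 ± 0.986 CPM in HCC1806 (SD, n = 3), and its change did not pass.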

How the data were processed

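The 12 libraries were made from total RNA after DNase treatment and rRNA depletion, per the labels. Per the submitters' processing notes, Trimmomatic 0.36, STAR 2.5.2b, featureCounts of Subread 1.5.2 and GRCh38 were used; the annotation release and strand setting are not given in the sources used here. The deposited table holds raw read counts per gene, without normalization by the authors. In it 485 rows with no gene name held 0.0284% of counts. They stayed in the library totals and were filtered and tested like the other rows. Coordinates and exon lengths came from GENCODE 29 by Ensembl ID, which matched 56898 genes.

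edgeR 4.0.16 in R 4.3.3 fitted 1 quasi-likelihood model (filterByExpr, TMM, 4 group coefficients) to all 12 libraries; tests are two-sided and Benjamini-Hochberg adjusted over 27029 genes, with a threshold of 0.05. The biological coefficient of variation was 0.171 (0.204 for HCC1806 alone, 0.0936 for MDA-MB-468 alone). SE is the log2 change divided by the square root of F. Simulated data of 27029 genes took the spread of the shared fit for both lines, not that of each line alone. There HCC1806 changes of log2 0.5 were recovered for 17.0% of 100 genes and of log2 1 for 69.0% of 100, with 7.53% of calls false. For MDA-MB-468 these were 22.4% of 116, 82.1% of 84 and 3.06%. Alternatives were DESeq2 1.42.0, RLE factors, library size only, no filter, a mean of 50 counts, each line alone, the replicate block, an adjusted p of 0.01 and 12 leave-one-out fits.

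Values by library are given for the 3 smallest p in each direction in each line, for genes past the threshold, and for HSPA5, HSP90B1, XBP1, ATF6, ERN1, DNAJB9, HERPUD1, SDF2L1 and ERO1A. CALR was added after its values were seen. For PDIA3, PDIA6, SDF2L1, ERO1A and CALR these values cover the HCC1806 libraries only. Of the 70-gene and PERK lists at most the 5 smallest p in each line were named, and EIF2AK3 was added for its role; the result of 1 gene that this rule names is not reported here. The members and lists were chosen with earlier results of these data known. Figures were drawn with matplotlib 3.10.9 in Python 3.11.15. Promoter windows came from RefSeq; a gene with several windows counted once.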

Additional observations from a re-analysis of the deposited data

How the results depend on the processing

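In HCC1806 2 of the 38 genes passed (2.49% of all tested genes did). The count was 10 with DESeq2 (7.32%), 0 with each line alone (0.315%), 5 with a mean of at least 50 counts (5.31%), 7 with no filter (3.04%), 1 with RLE size factors (2.28%), 0 at an adjusted p under 0.01, and 0 to 10 over the 12 fits that each left out 1 library (0 without control replicate 1, 10 without PACT-depleted replicate 1). Whether the replicate numbers pair the libraries was not settled, and the main fit did not use them. Same-number correlations of deviations were all positive but small (HCC1806 0.231, 0.137 and 0.0771 for replicates 1, 2 and 3, MDA-MB-468 0.0156 to 0.0284). Each control library correlated best with the depleted library of its own number, except HCC1806 control replicate 2. That library had 0.143 with depleted replicate 3, against 0.137 with depleted replicate 2. With the replicate block the count was 12 in HCC1806 (3 higher, 9 lower; 2.6% and 4.61% of all tested genes), 0 in MDA-MB-468 (0.377%) and 1 for the difference between lines (HSP90B1; 1%). ERN1 was the 1 gene to pass in MDA-MB-468 with each line alone. The HCC1806 median kept its sign in all 19 refits (-0.26 to -0.04), and the MDA-MB-468 median turned to 0.02 with library size only and 0.01 without PACT-depleted replicate 2. Signs of single genes were followed only for HSPA5, HSP90B1, PDIA3, PDIA6, P4HB, DNAJB9, SDF2L1, SYVN1, HERPUD1, XBP1, ATF6, ATF6B, ERN1 and ERO1A. The rest of the 38 may also have turned sign in some refits. Among the genes followed, estimates that turned sign were SDF2L1 in HCC1806 (-0.06 with the replicate block, -0.56 to 0.39 over the leave-outs, negative without control replicate 2, at -0.14, or PACT-depleted replicate 1) and in MDA-MB-468 (-0.27 to 0.02, positive without control replicate 1), ERO1A in HCC1806 (-0.48 to 0.02, positive without control replicate 1), PDIA3 in MDA-MB-468 (0.01 with library size only) and HSP90B1 in MDA-MB-468 (-0.04 to 0.06, negative without control replicate 1 or, at -0.01, PACT-depleted replicate 3). Of the 70 further ER genes, 11 passed in HCC1806 (2.49% of all tested genes did). The count was 0 with each line alone (0.315%), 7 with library size only (2.93%), 25 with the replicate block (7.2%), 0 at 0.01, and 2 to 29 over the leave-outs (1.03% and 6.15% in those fits). PERK branch calls were 8 in HCC1806 (2.49% of all tested genes) and 5 there with each line alone (0.315%). In MDA-MB-468 they were 2 (0.17%), 5 with DESeq2 (0.455%), 6 with each line alone (1.51%), 4 with no filter (0.322%), 5 with the replicate block (0.377%), and 2 to 5 over the leave-outs. Shares of all tested genes were not counted for the MDA-MB-468 leave-outs, so that range has no such measure beside it. The cause of each change was not tested. The alternatives on these lists were chosen after seeing the data. Simulated log2 changes of 0.5 were mostly missed in both lines, at the spread of the fit shared by all 12 libraries. That spread is below the one of HCC1806 alone and above the one of MDA-MB-468 alone.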
